A study of Mus musculus with 27 samples.

Results

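Gene expression in the liver was compared with that in the gastrocnemius muscle of lean mice fed the normal diet (ND). The comparison rests on 6 arrays of the 27 in the series, 3 of liver and 3 of muscle, chosen by their sample labels alone, and on the 9992 genes, of 19057 named on the array, that were detected on all 3 arrays of at least 1 of the tissues. The mice were male C57BL/6J (spelled C56BL/6J in 1 label field), arrived at 4 weeks of age and were kept on the ND for 16 weeks, with 10 mice per diet according to the labels. The remaining arrays were of epididymal white adipose tissue (WAT), of a high-fat diet (HFD) with 20% fat and 1% cholesterol, and of the HFD with 0.05% ursolic acid (UR). The study's methods state that each group's RNA was combined into 3 pooled sets, so n counts pools, and every error here is the spread between pools of RNA and not between mice. According to the same methods, all mice had been fasted before their tissues were taken, so the values are those of fasted mice. The liver and gastrocnemius were whole tissues, in which fewer cells of a type and less RNA per cell cannot be told apart.

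The liver makes most proteins of blood plasma, disposes of nitrogen as urea, makes bile acids, and keeps blood glucose up during a fast by breaking down glycogen and by making new glucose. Skeletal muscle is built of sarcomeres, in which myosin thick filaments slide along actin thin filaments when calcium is released from the sarcoplasmic reticulum, and it refills its ATP from phosphocreatine, glycolysis and mitochondrial respiration. The tissues meet in metabolism through lactate, amino acids and glucose, and many enzymes that both use are encoded by separate genes for a liver form and a muscle form.

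Of the 45281 probes on an array, 34.2% to 36.7% were detected at a detection p under 0.05, with fewer on each liver array than on each muscle array. Total signal per array was 33610124 to 36807245 in liver and 26791762 to 31855725 in muscle, and 40 to 49 probes in liver and 10 to 28 in muscle had a signal above 60000. Values are log2 signals after quantile normalization over all 27 arrays. The brightest detected probe stands for a gene. Levels of different genes come from different probes and are not set against each other. Correlations of the log2 signals over genes were 0.996 within liver, 0.997 within muscle and 0.478 to 0.486 between the tissues, a description over genes that share each array. Both labels fitted their defining genes. The summed signal of the 35 plasma protein genes with a probe was 988025 to 1029275 in liver and 6882 to 7178 in muscle, and that of the 19 thick filament genes was 3393 to 3489 in liver and 425674 to 431476 in muscle.

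The tissues differed in most of the genes tested. With limma and Benjamini-Hochberg adjustment over all 9992 genes, 4043 genes were higher in liver (40.5%) and 4628 were higher in muscle (46.3%) at an adjusted p under 0.05, while 1321 were not called. With a difference of at least 2-fold as well, 1796 genes were higher in liver (18.0%) and 2039 in muscle (20.4%). The median difference over all genes, liver minus muscle, was -0.08 on the log2 scale. In the following, "higher" without a p stands for an adjusted p under 0.05 in this test, and a log2 difference is always liver minus muscle, so that negative values are higher in muscle.

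Detection split the genes in the same way. Of the 9992 genes, 7074 (70.8%) were detected on all 6 arrays, 951 on all 3 liver arrays and no muscle array, and 1173 on all 3 muscle arrays and no liver array. For a gene detected in 1 tissue only, the fold is a lower bound, since it is taken against the lowest detected signal of each array of the other tissue or the probe's own signal, whichever is higher. This bound was at least 10-fold for 254 of the genes of liver only and for 149 of the genes of muscle only, and its median was 2.46-fold and 1.75-fold. A gene detected in 1 tissue only passed the filter through that tissue and had to differ in its direction, so the counts over lists below describe their members, and those for members detected on all 6 arrays are given beside them. Of the 7074 genes detected on all 6 arrays, 2758 were higher in liver and 3168 in muscle. Different probes of a gene did not always go together: of 3187 called genes with more than 1 probe, 537 had another probe that was called the other way.

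**Figure D1:**
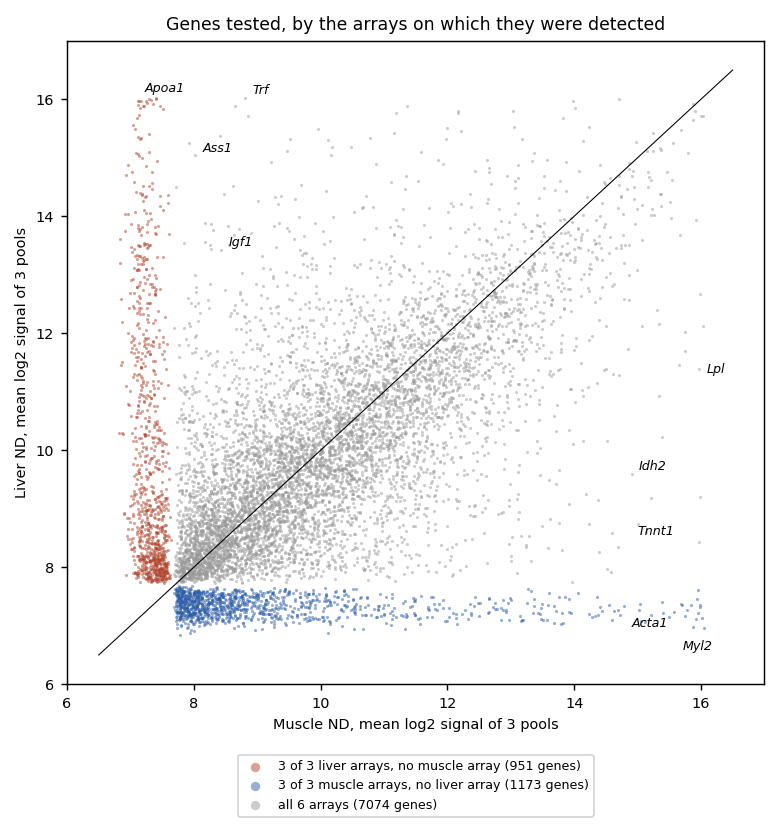
Mean log2 signal in liver (vertical axis) against that in muscle (horizontal axis), 3 pools each, for the genes tested in 3 detection classes; the line marks equal signal. The 951 red genes detected in liver only and the 1173 blue genes detected in muscle only lie along the axes, and Apoa1 and Myl2 lie at their far ends.

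The 12 largest differences towards liver were in genes of secreted proteins and in 1 gene of a peroxisomal enzyme. Apoa1, the main protein of high-density lipoprotein, had log2 signals of 15.95, 15.95 and 16.03 in the liver pools, against 7.15, 7.15 and 7.03 in the muscle pools. It was detected on every liver array and on no muscle array, at least 318-fold higher in liver (log2 difference 8.86, SE 0.06, adjusted p = 8.98e-17). Fga, the alpha chain of fibrinogen, had 15.96, 15.97 and 15.98 in liver and 7.32, 7.23 and 7.18 in muscle, a difference of at least 317-fold. Ahsg, the carrier protein fetuin-A, averaged 15.90 ± 0.01 in liver and 7.12 ± 0.13 in muscle (SD, n = 3 pools each). The other members of this group were Serpina1d and Serpina1b (alpha-1-antitrypsins that inhibit elastase), Mup2 and Mup3 (major urinary proteins that carry pheromones), Ambp (the precursor of alpha-1-microglobulin), Apoc3 and Apoa2 (apolipoproteins), Kng1 (kininogen) and Acaa1b (a thiolase of peroxisomal fat oxidation), with log2 differences of 8.61 to 8.83. The Serpina1 and Mup genes belong to families of near-identical copies, and which copy a probe bound is uncertain.

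The 12 largest differences towards muscle were in genes of the sarcomere and of its energy supply. Myl2, the regulatory myosin light chain of slow and cardiac fibres, had 7.01, 6.84 and 7.04 in liver and 16.05 in each of the 3 muscle pools. The gene was detected on no liver array and was at least 323-fold higher in muscle (log2 difference -9.09, SE 0.06, adjusted p = 1.03e-16). Acta1, skeletal muscle actin, had 6.87, 7.12 and 6.95 in liver and 15.88, 15.88 and 15.85 in muscle, a difference of at least 286-fold. Next came Tnnc2 (fast troponin C), Myl3 and Myl1 (myosin light chains), Cox6a2 (the muscle form of a cytochrome oxidase subunit), Actn2 (alpha-actinin of the Z-disc), Fabp3 (a fatty acid carrier), Ttn (titin), Mb (myoglobin), Tnni2 (fast troponin I) and Tpm3 (a tropomyosin), from -8.87 to -8.43. All 24 of these genes had means of 6.96 to 7.50 in the tissue where they were lower and of 15.76 to 16.05 in the other. The higher means lay near the top of the signal range, and whether they were saturated was not tested. For Tpm3, 1 of its 6 probes was higher in liver, by 0.93, and it is the probe left when only probes detected on all 6 arrays are kept.

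Among genes detected on all 6 arrays the largest differences had the same character. Ugt1a10, of a family that conjugates compounds with glucuronic acid, was higher in liver by 7.33 (SE 0.06), although its probe may bind other members of the Ugt1a cluster. Cyp2e1, the ethanol-oxidizing cytochrome P450, had 15.79, 15.94 and 15.92 in liver and 8.66, 8.93 and 8.38 in muscle. Trf (transferrin, the iron carrier), Ass1 (argininosuccinate synthase of the urea cycle), Gnmt (glycine methyltransferase), Apoe (apolipoprotein E), Hgd (tyrosine breakdown) and C4a (complement) followed with 7.22 to 5.91. In the direction of muscle, Tnnt1, slow troponin T, had 8.53, 8.06 and 8.70 in liver and 15.95, 15.98 and 15.97 in muscle (-7.54, SE 0.13). It was followed by Fhl1, Des (desmin, the intermediate filament of muscle), Cryab (a small heat shock protein), Tpm2 (beta-tropomyosin), Myom1 (myomesin), Eno3 (muscle enolase) and Lmcd1, with -6.79 to -6.22. Only called genes whose arrays did not overlap between the tissues could enter these sets of largest differences. The separation of their arrays was thus a condition and not a result.

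**Figure D2:**
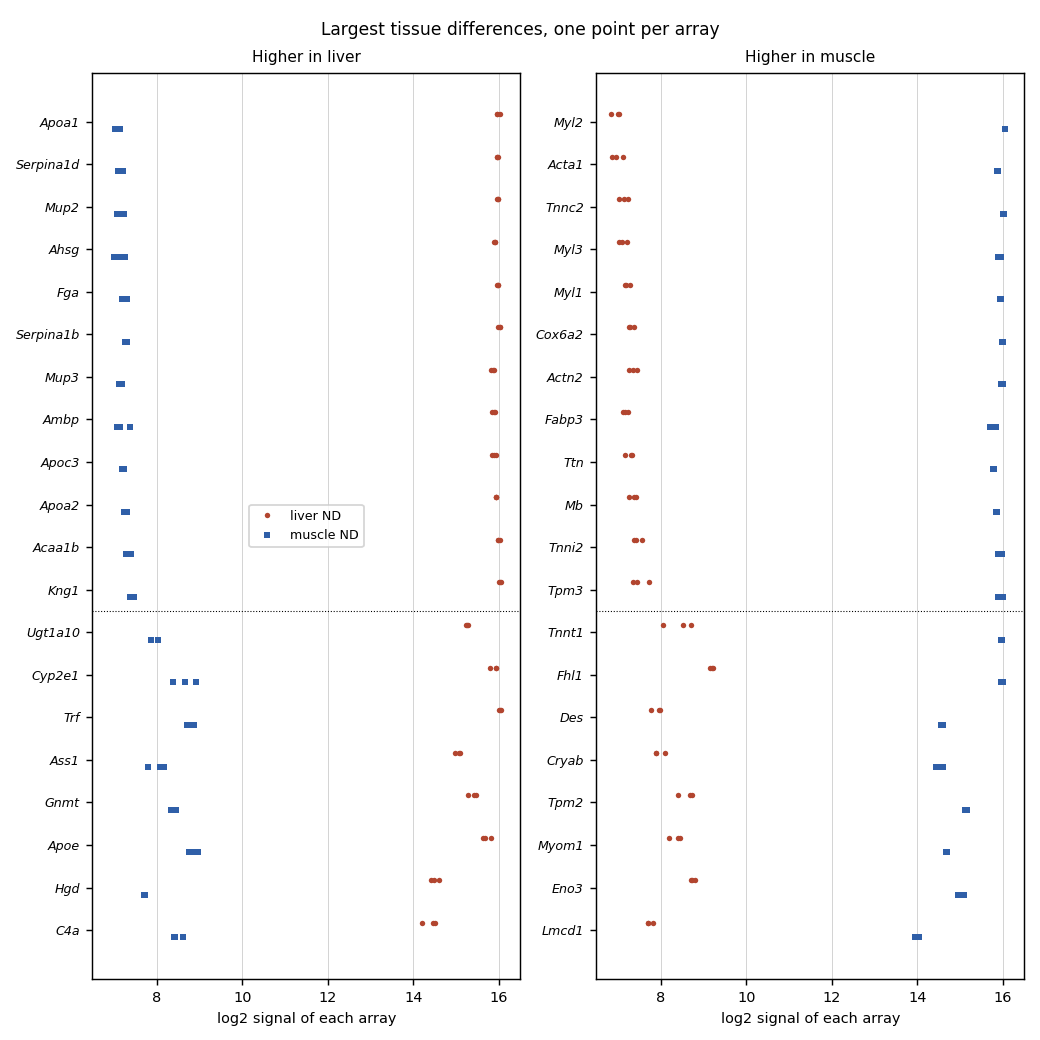
Log2 signal of each array (horizontal axis) for the 12 genes with the largest differences in each direction (above the dotted line) and the 8 largest among genes detected on all 6 arrays (below it); circles are liver ND pools and squares muscle ND pools. The 3 pools of a tissue lie close together, and they lie apart from the other tissue because only genes without overlap were eligible.

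The start regions of some of these genes are shown because they carry letters that are textbook binding sites of tissue factors. The sequences are RefSeq windows of GRCm38.p6, 250 bases before to 50 bases after the annotated start, read 5′ to 3′ on the gene's strand. Capitals mark matches, on either strand, to any of 9 motifs: TATAAA (the TATA box), GTTAAT (part of the site of HNF1, a hepatocyte factor), CAAAGTC (HNF4), TGTTTAC (forkhead factors), CAGCTG (the E-box of myogenic factors), CATTCC (the M-CAT element of TEAD factors), GGGCGG (the GC box), the MEF2 site and the CArG box of serum response factor. The windows lie at chr3:83025903-83026202 (Fga, plus strand), chr16:22891765-22892064 (Ahsg, plus strand), chr12:103773584-103773883 (Serpina1d, minus strand), chr8:123894726-123895025 (Acta1, minus strand) and chr1:66945007-66945306 (Myl1, minus strand). They were chosen after their letters had been seen.
Fga: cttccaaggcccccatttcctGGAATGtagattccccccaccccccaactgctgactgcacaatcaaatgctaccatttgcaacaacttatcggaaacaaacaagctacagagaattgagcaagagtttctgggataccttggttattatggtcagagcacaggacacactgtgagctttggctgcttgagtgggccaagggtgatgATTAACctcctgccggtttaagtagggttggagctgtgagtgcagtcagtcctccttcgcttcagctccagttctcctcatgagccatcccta
Ahsg: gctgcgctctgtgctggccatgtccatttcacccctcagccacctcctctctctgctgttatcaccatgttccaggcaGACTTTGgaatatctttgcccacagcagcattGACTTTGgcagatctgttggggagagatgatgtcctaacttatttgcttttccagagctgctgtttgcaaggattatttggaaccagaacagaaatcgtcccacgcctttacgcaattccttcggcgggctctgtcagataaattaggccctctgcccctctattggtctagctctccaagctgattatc
Serpina1d: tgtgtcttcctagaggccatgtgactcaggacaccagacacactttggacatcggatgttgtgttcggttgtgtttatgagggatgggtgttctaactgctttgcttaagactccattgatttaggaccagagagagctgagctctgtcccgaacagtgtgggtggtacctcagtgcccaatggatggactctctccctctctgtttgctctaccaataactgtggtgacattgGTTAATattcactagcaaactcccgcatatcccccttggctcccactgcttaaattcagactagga
Acta1: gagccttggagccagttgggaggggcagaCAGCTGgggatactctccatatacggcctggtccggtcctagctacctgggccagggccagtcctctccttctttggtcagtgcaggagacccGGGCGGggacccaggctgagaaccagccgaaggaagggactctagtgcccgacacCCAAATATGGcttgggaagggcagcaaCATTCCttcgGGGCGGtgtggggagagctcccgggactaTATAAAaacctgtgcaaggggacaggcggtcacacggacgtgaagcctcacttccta
Myl1: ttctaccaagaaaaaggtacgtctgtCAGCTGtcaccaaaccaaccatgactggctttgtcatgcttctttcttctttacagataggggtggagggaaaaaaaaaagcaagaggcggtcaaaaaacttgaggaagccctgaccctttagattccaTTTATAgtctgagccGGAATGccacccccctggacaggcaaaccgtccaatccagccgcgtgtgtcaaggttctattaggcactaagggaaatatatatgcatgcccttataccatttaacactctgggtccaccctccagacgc

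The windows held several of the motifs. Fga had GTTAAT on the opposite strand from position -43 to -38 relative to the start and CATTCC on that strand from -229 to -224, and Serpina1d had it on the gene's strand from -16 to -11. Ahsg held CAAAGTC in 2 places on the opposite strand. Acta1 held an E-box, a CArG box from -73 to -64, the M-CAT letters and TATAAA, and Myl1 held an E-box and the M-CAT letters. Over the windows found, GTTAAT was in 9.51% of 736 windows of genes detected in liver only, 3.13% of 927 windows of genes detected in muscle only, 3.58% of 5811 windows of genes detected on all 6 arrays, and 7.20% of all 27025 windows. CAAAGTC was in 6.93% of windows for liver only, 3.78% for muscle only and 4.36% of all, and TGTTTAC in 3.53%, 3.02% and 3.55%. The MEF2 site was in 2 windows for liver only (0.272%) and 15 for muscle only (1.62%), against 0.566% of all windows, and the CArG box in 1.49%, 2.27% and 1.57%. CAGCTG was in 18.3% of windows for liver only, 21.6% for muscle only and 16.1% of all, and CATTCC in 14.5%, 13.8% and 14.6%. TATAAA was in 15.2%, 10.6% and 14.2%, and GGGCGG in 302 of 736 windows for liver only, 524 of 927 for muscle only and 9704 of all 27025. A MEF2 site or CArG box can contain TATAAA. Because 77.4% of the genes detected in liver only and 79.0% of those detected in muscle only had a window, fewer than 80%, the shares are void as a check of these classes and describe only the windows found.

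The genes of secreted liver products that were tested were nearly all higher in liver. All 34 plasma protein genes tested were higher in liver, with a median log2 difference of 7.09, and all 32 genes of coagulation and complement were, with a median of 5.50, beside 40.5% of all genes tested. Of these, 26 and 21 were detected in liver only. The 4 plasma protein genes and 10 coagulation and complement genes detected on all 6 arrays had medians of 5.70 and 3.22. Ttr, the thyroid hormone carrier, had 15.35, 15.33 and 15.56 in liver and 7.21, 7.36 and 7.32 in muscle. Plg (plasminogen), F9 (a clotting factor whose loss causes haemophilia) and C9 (the last complement component) were at least 122-fold, 83.6-fold and 84.4-fold higher in liver. Albumin stood low in this list by its difference, but how well its probe measures the mRNA was not tested. The probe for Alb had 9.05, 9.03 and 9.22 in liver and 7.01, 7.08 and 7.07 in muscle, a difference of 2.05 (SE 0.08). Of 22 genes of apolipoproteins and lipoprotein handling, 19 were higher in liver and 3 in muscle, and of the 5 detected on all 6 arrays, 3 and 2. The 3 genes higher in muscle act where fat is taken up from the blood: Lpl (lipoprotein lipase), with 11.47, 11.50 and 11.18 in liver and 15.94, 16.00 and 15.99 in muscle (-4.59, SE 0.08), Cd36 (a fatty acid transporter, -1.37) and Gpihbp1 (the anchor of the lipase on capillaries, -0.46).

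Nitrogen, bile acid and drug metabolism followed the same pattern. The counts of this paragraph stand beside 40.5% of all genes tested that were higher in liver. In the list of urea cycle and amino acid enzymes, 29 of 32 genes were higher in liver, with a median of 4.96, as were 11 of the 14 detected on all 6 arrays (median 2.59). Cps1, the first enzyme of the urea cycle, had 15.30, 15.49 and 15.22 in liver and 7.26, 7.21 and 7.02 in muscle, and Arg1 (arginase) and Mat1a (the liver form of methionine adenosyltransferase) were higher by 7.76 and 8.41. The 2 genes higher in muscle, Bcat2 (-0.78) and Bckdhb (-0.31), act early in the breakdown of branched-chain amino acids. Bckdha, of the same breakdown, was higher in liver (0.32), and Glul (glutamine synthetase) was not called (-0.11, adjusted p = 0.15). Bckdhb was no longer called when arrays were scaled to a common median or not normalized. All 18 genes of bile acid synthesis and transport tested were higher in liver, 6 of them detected on all 6 arrays (median 3.19). Cyp7a1, the rate-limiting enzyme of bile acid synthesis, had 13.72, 13.58 and 13.21 in liver and 7.08, 7.04 and 7.26 in muscle, at least 57.3-fold higher. Slco1b2 (an uptake carrier of hepatocytes), Cyp8b1 (sterol 12-alpha-hydroxylase) and Abcb11 (the bile salt export pump) were higher in liver by 8.52, 8.31 and 3.94. Of the cytochrome P450 genes of families 1 to 4, 36 had a probe and 28 were tested. All 28 were higher in liver (median 6.12), led by Cyp4a14 (fatty acid omega-oxidation, 8.57). Of 35 conjugating enzymes with a probe, 31 were tested and 30 were higher in liver. On all 6 arrays 4 of these P450 genes (median 3.74) and 15 of the conjugating enzymes (median 2.44) were detected. The exception, the glutathione transferase Gstm5, had 9.02, 8.90 and 9.14 in liver and 11.69, 11.73 and 11.62 in muscle. Closely related P450 and transferase genes can share a probe's signal.

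Genes of the contractile apparatus were nearly all higher in muscle. All 19 thick filament genes tested were higher in muscle (median -6.08), as were 18 of 19 thin filament genes (median -6.54), all 30 of the Z-disc and intermediate filament (median -5.86) and 27 of 28 of excitation-contraction coupling and calcium (median -3.77), beside 46.3% of all genes tested. Of these, 15 thick filament, 13 thin filament, 17 Z-disc and 24 excitation-contraction coupling genes were detected in muscle only. Of those detected on all 6 arrays, 3 of 3 thick filament, 2 of 3 thin filament, 11 of 11 Z-disc and 1 of 2 excitation-contraction coupling genes were higher in muscle. Genes of fast and of slow fibres were both there. The fast forms Tnnt3 (troponin T) and Mylpf (myosin light chain) were at least 233-fold and 254-fold higher in muscle, and the slow form Tnni1 (troponin I) at least 32.1-fold. Myh1, a fast myosin heavy chain, had 7.17, 7.38 and 7.17 in liver and 13.89, 13.95 and 13.91 in muscle, and Myh7, the slow heavy chain, had 7.46, 7.38 and 7.45 in liver and 11.63, 11.43 and 11.37 in muscle. Myh4, the heavy chain of the fastest fibres, was the most uneven of the heavy chains, with 7.22, 7.23 and 7.20 in liver and 12.33, 9.77 and 11.20 in muscle (-3.88, SE 0.45). The thin filament gene higher in liver was Tpm1 (alpha-tropomyosin), by 0.25 (SE 0.06, adjusted p = 0.0033), and both of its probes were at 0.25.

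Most genes of calcium handling were higher in muscle. Ryr1, the calcium release channel of skeletal muscle, had 7.13, 7.20 and 7.13 in liver and 14.29, 14.32 and 14.25 in muscle. Pvalb (the calcium buffer parvalbumin) and Hrc (a calcium-binding protein of the reticulum) were at least 106-fold and 121-fold higher in muscle. Asph was counted as higher in muscle (-4.43), but its direction reversed under 5 alternatives. The gene of this list that was higher in liver was Itpr2, an inositol trisphosphate receptor that releases calcium from the endoplasmic reticulum of non-muscle cells, with 10.47, 10.46 and 10.47 in liver and 9.41, 9.58 and 9.14 in muscle. At the nerve contact, Chrna1 and Chrnb1, subunits of the acetylcholine receptor, were higher in muscle (-5.12 and -3.41). In their list 7 of 8 genes tested were higher in muscle (3 of the 4 detected on all 6 arrays) and 1 was not called. Of all genes tested, 46.3% were higher in muscle. Of the dystrophin complex and membrane repair, all 15 genes tested were higher in muscle, beside 46.3% of all genes tested, and 5 of them were detected on all 6 arrays. The list was led by Trim72 (membrane patching, -6.47), Dtna (dystrobrevin, -5.42) and Sgca (alpha-sarcoglycan, -5.17).

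**Figure D3:**
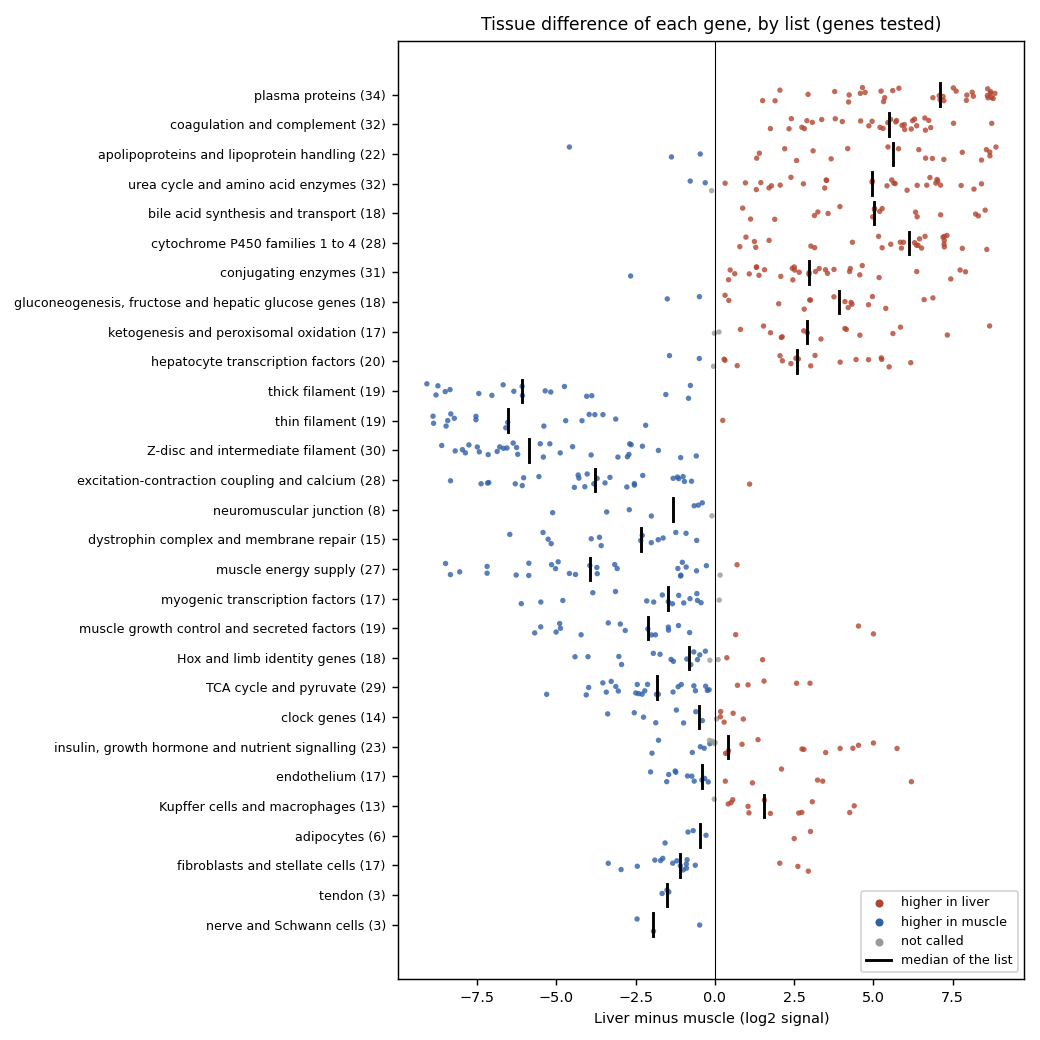
Liver minus muscle difference in log2 signal (horizontal axis) of each gene tested, by list with the number tested; red genes were higher in liver, blue ones in muscle and grey ones were not called, and the bar is the list's median. Lists of hepatocyte products lie to the right (plasma proteins, median 7.09) and lists of the sarcomere to the left (thick filament, median -6.08), while clock, signalling and endothelial lists lie on both sides.

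Pairs of enzymes with a liver and a muscle gene mostly went opposite ways. Of 28 pairs, 18 had both genes tested, and in 14 the liver form was higher in liver and the muscle form higher in muscle. Glycogen phosphorylase, which releases glucose units from glycogen, showed this plainly. Pygl, the liver gene, had 13.53, 13.46 and 13.71 in liver and 8.22, 8.20 and 8.11 in muscle (5.39, SE 0.07), and Pygm, the muscle gene, had 7.26, 7.07 and 7.26 in liver and 12.35, 12.15 and 12.18 in muscle (-5.03, SE 0.08). The windows at the starts of this pair, at chr12:70227634-70227933 (Pygl, minus strand) and chr19:6384158-6384457 (Pygm, plus strand), are given with the same marks because they differ in the motifs they hold: Pygl has GGGCGG in 4 places and Pygm has CAGCTG in 2.
Pygl: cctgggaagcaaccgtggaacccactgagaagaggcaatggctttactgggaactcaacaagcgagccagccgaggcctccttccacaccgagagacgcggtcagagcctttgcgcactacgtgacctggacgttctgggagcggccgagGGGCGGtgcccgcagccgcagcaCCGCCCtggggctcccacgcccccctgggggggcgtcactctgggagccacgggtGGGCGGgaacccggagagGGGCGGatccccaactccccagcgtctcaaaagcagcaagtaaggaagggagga
Pygm: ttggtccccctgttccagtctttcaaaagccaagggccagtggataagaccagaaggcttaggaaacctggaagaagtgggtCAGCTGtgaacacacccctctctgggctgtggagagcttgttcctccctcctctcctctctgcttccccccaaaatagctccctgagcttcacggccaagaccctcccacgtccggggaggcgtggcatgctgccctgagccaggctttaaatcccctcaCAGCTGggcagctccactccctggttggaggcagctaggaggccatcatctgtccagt

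The other glucose pairs were split as well. Fructose-bisphosphatase, a step of gluconeogenesis, had its liver gene Fbp1 at 14.08, 14.15 and 14.09 in liver and 7.49, 7.52 and 7.52 in muscle, and its muscle gene Fbp2 at 7.60, 7.37 and 7.78 in liver and 10.80, 10.97 and 10.47 in muscle. The glucose transporters Slc2a2 and Slc2a4, the second of which moves to the surface under insulin, differed by 4.97 and -3.72. Glycogen synthase differed by 4.10 for Gys2 and -1.03 for Gys1, phosphofructokinase by 1.99 for Pfkl and -5.15 for Pfkm, phosphoglycerate mutase by 1.50 for Pgam1 and -7.19 for Pgam2, and pyruvate kinase by 2.01 for Pklr and -4.94 for Pkm. Another probe of Pfkl was higher in muscle (-0.28). The subunits of phosphorylase kinase, which switches phosphorylase on, gave 0.99 for Phka2 and -3.08 for Phka1, and 0.99 for Phkg2 and -4.03 for Phkg1.

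Outside glucose metabolism, the pairs were split for Cpt1a (0.85) and Cpt1b (-5.22), the entry of fatty acids into mitochondria, for Cox6a1 (2.62) and Cox6a2 (-8.67), for the ADP/ATP carriers Slc25a5 (1.87) and Slc25a4 (-1.07), for the AMP deaminases Ampd2 (1.50) and Ampd1 (-7.19), and for the adenylosuccinate synthases Adss (1.67) and Adssl1 (-3.71). In 2 pairs both genes were higher in muscle. Atp2a2, the calcium pump of the endoplasmic reticulum in most cells, had 12.49, 12.86 and 12.66 in liver and 15.94, 16.01 and 15.99 in muscle (-3.31), with Atp2a1, the pump of fast fibres, at -8.34. Cox7a2 (-1.69) went with Cox7a1 (-6.03). The catalytic subunits of the energy sensor AMPK were the pair without a called gene: Prkaa1 differed by -0.02 (SE 0.08, adjusted p = 0.82) and Prkaa2 by -0.17 (SE 0.09, adjusted p = 0.093). Prkaa2 was called higher in muscle with the mean over its probes (-0.22) and without liver ND replicate 3 (-0.25). Of the AMPK gamma subunits, Prkag3 was higher in muscle (-0.46) and Prkag2 was not called (-0.08, adjusted p = 0.49). In 9 pairs 1 gene was tested, and it was higher in its own tissue in each (2 liver genes and 7 muscle genes). In the remaining pair, hexokinase, neither gene was tested.

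**Figure D4:**
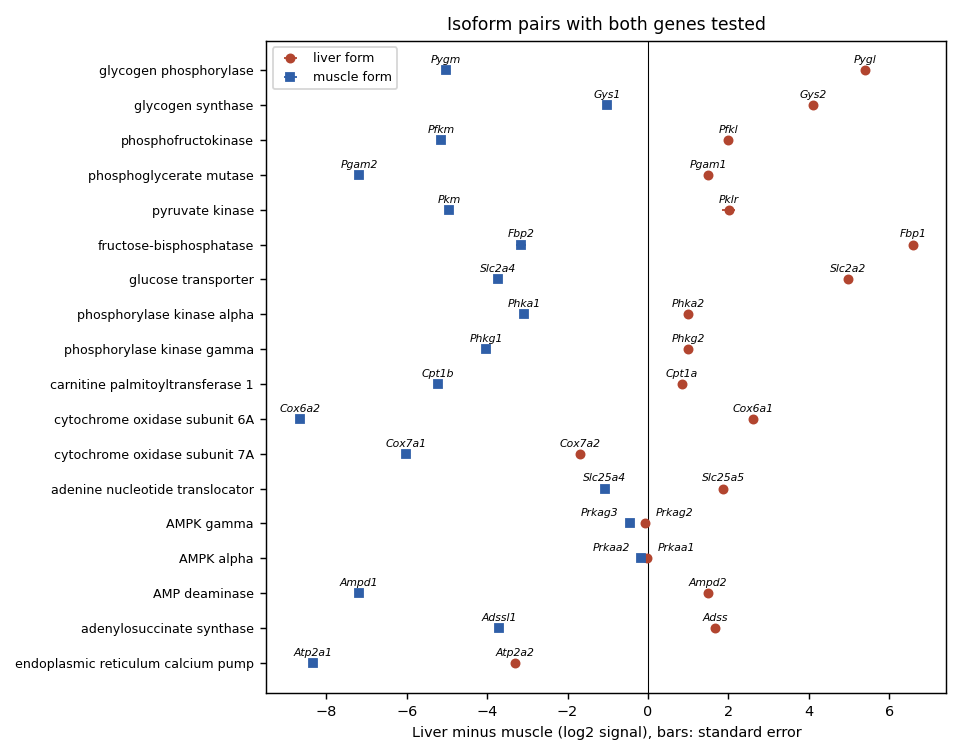
Liver minus muscle difference in log2 signal (horizontal axis, bars: SE from limma, n = 3 pools per tissue) of the liver form (circles) and the muscle form (squares) of 18 enzyme, carrier and pump pairs with both genes tested. Liver forms lie right of 0 and muscle forms left of it in 14 pairs; both are left of 0 for cytochrome oxidase subunit 7A and the calcium pump, and the AMPK pairs lie near 0.

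Most genes of muscle energy supply and of the TCA cycle were higher in muscle. Of 27 genes of muscle energy supply, many of them muscle forms of the pairs above, 25 were higher in muscle, beside 46.3% of all genes tested. Of the 13 detected on all 6 arrays, 12 were. Ckm and Ckmt2, the cytosolic and mitochondrial creatine kinases, were at least 169-fold and 221-fold higher in muscle. Ldha, lactate dehydrogenase A, was higher in liver instead, with 14.84, 14.69 and 14.79 in liver and 14.11, 14.04 and 14.07 in muscle (0.70, SE 0.05). In the list of the TCA cycle and pyruvate, 5 of 29 genes were higher in liver and 24 in muscle, beside 40.5% and 46.3% of all genes tested. Of the 25 detected on all 6 arrays, 5 were higher in liver and 20 in muscle. Idh2, mitochondrial isocitrate dehydrogenase, had 9.61, 9.65 and 9.53 in liver and 14.84, 14.93 and 14.95 in muscle, while Idh1, its cytosolic counterpart, had 13.16, 13.11 and 13.30 in liver and 10.78, 10.59 and 10.47 in muscle. Pdk4, which shuts off pyruvate entry, Mdh2 (malate dehydrogenase) and Cs (citrate synthase) were higher in muscle by a log2 difference of -4.06, -3.98 and -3.13. The other genes higher in liver were Idh3b (3.00, with another probe at 0.35), Pdp2 (1.55), Aco1 (1.05) and Suclg2 (0.71), the last of which makes GTP in the cycle.

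Gene families were also taken by their symbols, after the lists had been seen. All 33 tested subunits of complex I (of 34 with a probe) were higher in muscle, with a median of -1.21 and a range from Ndufb5 at -3.93 to Ndufs6 at -0.42, whose call was lost with arrays scaled to a common median. Of the ATP synthase subunits 15 of 16 were higher in muscle (median -1.21), led by Atp5a1 (-4.11), and of the mitochondrial ribosomal proteins 53 of 73 (median -0.56), beside 46.3% of all genes tested. Of 35 mitochondrial carriers, 19 were higher in liver and 14 in muscle, beside 40.5% and 46.3% of all genes tested. Those higher in liver included Slc25a47 (5.71), the dicarboxylate carrier Slc25a10 (4.32), the citrate carrier Slc25a1 (3.94) and Slc25a15 (3.47), which carries ornithine for the urea cycle. Those higher in muscle included the aspartate-glutamate carrier Slc25a12 (-3.46) and the phosphate carrier Slc25a3 (-3.29). Cytosolic ribosomal proteins (median -0.20) and proteasome subunits (median -0.15) stood near the median of all genes, and their medians turned positive, to 0.07 and 0.09, with arrays scaled to a common median.

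Most tested genes of glucose output and peroxisomal oxidation were higher in liver. Of 18 genes of gluconeogenesis, fructose and hepatic glucose handling, 16 were higher in liver, as were 7 of the 8 detected on all 6 arrays, beside 40.5% of all genes tested. G6pc, which frees glucose for export, had 14.41, 14.47 and 14.68 in liver and 7.68, 7.58 and 7.67 in muscle, and Pck1, the committed step of gluconeogenesis, was at least 6.01-fold higher in liver. Ppp1r3c, which targets a phosphatase to glycogen, was higher in muscle (-1.50, SE 0.16), as was Sik1, a salt-inducible kinase (-0.49). Of 17 genes of ketogenesis and peroxisomal oxidation, 15 were higher in liver and 2 were not called, and 8 of the 10 detected on all 6 arrays were higher in liver. Uox, which degrades uric acid, was higher by 7.33 and Ehhadh, a peroxisomal oxidation enzyme, by 3.34.

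Transcription factors known from hepatocytes were mostly higher in liver. Of 20 hepatocyte factors tested, 17 were higher in liver, 2 in muscle and 1 was not called, with a median of 2.59, beside 40.5% of all genes tested higher in liver. Of these, 11 were detected in liver only. Among the 9 detected on all 6 arrays, 6 were higher in liver and 2 in muscle, and the median was 0.32. Nr1h4, the bile acid receptor FXR, had 13.40, 13.34 and 13.23 in liver and 7.12, 7.06 and 7.25 in muscle, at least 50.5-fold higher. The forkhead factors gave 5.49 for Foxa3, 3.16 for Foxa1 and 2.05 for Foxa2. Onecut2 (5.26), the xenobiotic receptors Nr1i3 (5.24) and Nr1i2 (2.55), Creb3l3 (4.84), Hnf4a (4.45), Nr5a2 (3.95), the oxysterol receptor Nr1h3 (3.02), Ppara (2.63), Prox1 (2.39) and Cebpa (2.13) were also higher in liver, and 1 of the 5 probes of Nr1i3 went the other way (-0.51). Atf5 (0.70), Tbx3 (0.32) and Rora (0.29) were higher in liver by less than 2-fold, and the call of Tbx3 was lost without muscle ND replicate 1. Cebpb, with 13.39, 13.60 and 13.19 in liver and 13.38, 13.56 and 13.37 in muscle, was not called (-0.05, adjusted p = 0.64), and its difference turned to 0.34 with arrays scaled to a common median. Zhx2 (-0.49) and Nfib (-1.43) were higher in muscle. Of the 10 probes of Nfib, 5 were higher in liver, and the difference of the mean over its probes was 0.10.

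Factors of the myogenic programme were mostly higher in muscle. Of 17 tested, 16 were higher in muscle and 1 was not called, with a median of -1.47, beside 46.3% of all genes tested higher in muscle. Of these, 11 were detected in muscle only, and 5 of the 6 detected on all 6 arrays were higher in muscle. Vgll2, a cofactor of TEAD factors in muscle, had 7.46, 7.44 and 7.23 in liver and 13.50, 13.42 and 13.54 in muscle. Myf6, the myogenic factor of mature fibres, had 7.26, 7.24 and 7.37 in liver and 12.76, 12.71 and 12.87 in muscle, at least 33.6-fold higher. Myog (myogenin), the factor of fusing myoblasts, was just above detection, with 7.49, 7.39 and 7.39 in liver and 7.89, 7.98 and 8.05 in muscle, and its call was lost without muscle ND replicate 2 and without the filter on detection. Mef2c (-4.80), Tead1 (-3.85), Tbx15 (-3.14), Srf (-2.15), Nfatc1 (-1.93), Eya1 (-1.66), Lbx1 (-1.47), Ppargc1a (-1.34), Six4 (-1.14), Prdm16 (-0.98), Vgll3 (-0.79), Nfatc2 (-0.57) and Tead4 (-0.44) were also higher in muscle. Sox6, which holds back slow fibre genes, was not called (0.14, adjusted p = 0.15). Myod1, Myf5 and Pax7 had a probe that was detected on 0 arrays of either tissue.

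Hox genes mark position along the body and limb axes, and several were detected in muscle only. Of 44 Hox and limb identity genes, 41 had a probe and 18 were tested. Of these, 14 were higher in muscle, 2 in liver and 2 were not called, beside 46.3% and 40.5% of all genes tested higher in muscle and in liver. Of the 18, 12 were detected in muscle only, and of the 4 detected on all 6 arrays, 2 were higher in muscle and 1 in liver. Hoxc10, a gene of hindlimb level, had 7.08, 7.13 and 7.16 in liver and 11.56, 11.49 and 11.56 in muscle, at least 14.2-fold higher. Hoxc9 was at least 10.6-fold higher in muscle. Tbx4, the hindlimb T-box factor, had 7.31, 7.29 and 7.22 in liver and 9.19, 9.06 and 9.39 in muscle. Hoxc6 (-3.03), Hoxd8 (-2.95), Hoxa7 (-1.73), Hoxb7 (-1.38), Hoxa5 (-1.31), Hoxa4 (-0.89), Meis1 (-0.76), Hoxd10 (-0.67), Hoxd9 (-0.55), Hoxa9 (-0.48) and Hoxd11 (-0.30) were also higher in muscle. Meis2 (1.50) and Hoxb5 (0.38) were higher in liver, and Hoxa13 (-0.16, adjusted p = 0.11) and Hoxb2 (0.10, adjusted p = 0.34) were not called. The call of Hoxd11 was lost without normalization between arrays, while Hoxa13 gained a call with all 27 arrays in the model and Hoxb2 without muscle ND replicate 1.

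**Figure D5:**
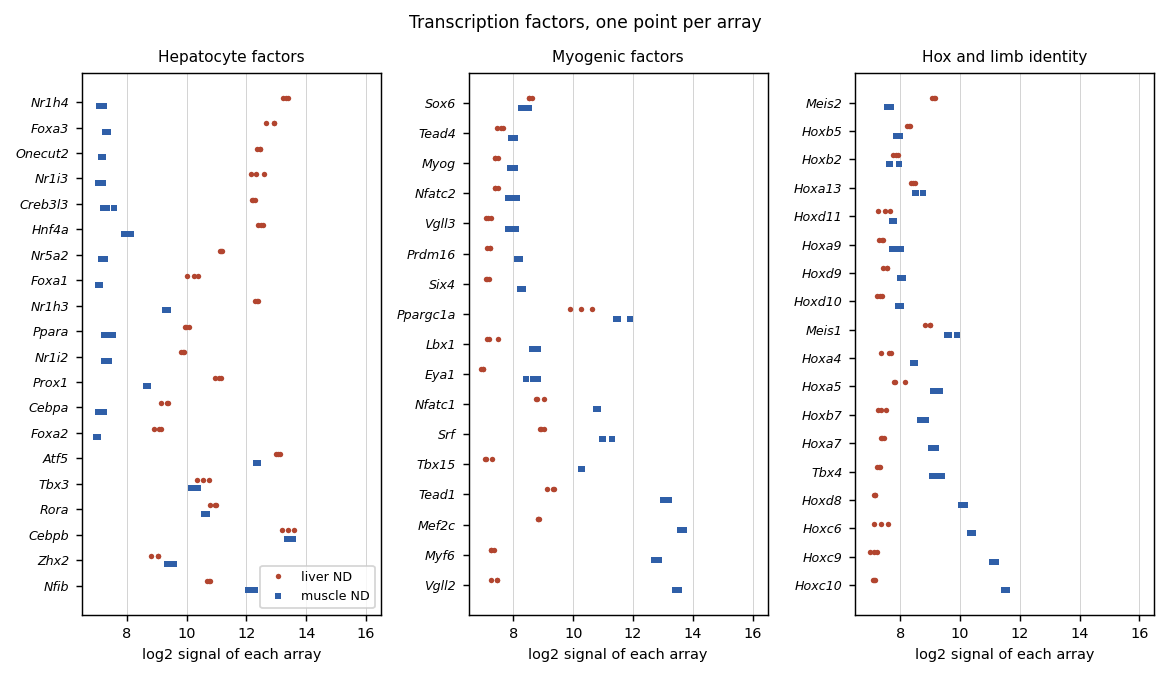
Log2 signal of each array (horizontal axis) for hepatocyte factors, myogenic factors and Hox and limb identity genes; circles are liver ND pools and squares muscle ND pools. Nr1h4 and Vgll2 are among the most separated, while the pools of the tissues overlap in Cebpb, Tbx3, Sox6, Hoxa13 and Hoxb2.

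Hormones and growth factors were divided between the tissues. Igf1, the growth factor that carries much of the action of growth hormone, had 13.44, 13.42 and 13.43 in liver and 8.54, 8.24 and 8.51 in muscle, and Igf2 had 7.85, 7.95 and 7.87 in liver and 10.87, 10.91 and 10.84 in muscle (-2.98, SE 0.07). The receptor Igf1r was higher in muscle (-1.78), and the binding proteins Igfbp2 (5.74) and Igfbp4 (4.35) in liver. Fgf21, a hormone of fasting, was at least 19.2-fold higher in liver, as were Gcgr, the glucagon receptor (at least 8.85-fold), and Klb, the coreceptor of Fgf21 (at least 5.23-fold). Of 19 genes of muscle growth control and secreted factors, 16 were higher in muscle, as were 6 of the 8 detected on all 6 arrays, beside 46.3% of all genes tested. Among the 16 were the ubiquitin ligase genes Fbxo32 (-4.90) and Trim63 (-3.36), which are known from muscle wasting, and Fndc5 (-4.22), the precursor of irisin.

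Of 14 clock genes tested, 12 were detected on all 6 arrays. Of the 14, 5 were higher in liver, 8 in muscle and 1 was not called, beside 40.5% and 46.3% of all genes tested. Arntl, the positive partner of Clock, had 8.28, 8.49 and 8.59 in liver and 10.50, 10.15 and 10.31 in muscle. The repressor Nr1d2 (-2.54), Usp2 (-3.38) and Bhlhe40 (-2.25) were higher in muscle too, as were Per1 (-1.22), Tef (-0.99), Cry2 (-0.60) and Ciart (-0.40). Per2 (0.89), Dbp (0.57), Rora (0.29), Clock (0.18) and Per3 (0.17) were higher in liver, and Nr1d1 was not called (0.05, adjusted p = 0.72). The calls of Per3, Dbp and Ciart were each lost in at least 4 of the fits that left out 1 array, and that of Clock without muscle ND replicate 2.

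Markers of other cells differed between the tissues as well, and not always towards the tissue they are known from. Of 13 macrophage and Kupffer cell genes tested, 12 were higher in liver, as were 6 of the 7 detected on all 6 arrays, beside 40.5% of all genes tested, with Clec4f and Vsig4, receptors of Kupffer cells, at least 13.9-fold and 17.9-fold higher, and the summed signal of the 14 genes with a probe was 17571 to 19170 in liver and 3527 to 3639 in muscle. Of 17 endothelial genes, 6 were higher in liver and 11 in muscle, beside 40.5% and 46.3% of all genes tested. Of genes that mark liver sinusoids, Clec4g (6.20), Oit3 (3.40), Fcgr2b (3.24), Stab2 (2.10) and Stab1 (1.18) were higher in liver and Lyve1 (-0.32) in muscle. Among general endothelial genes, Eng (0.33) was higher in liver, and Flt1 (-2.03), Emcn (-1.52) and Pecam1 (-1.46) were higher in muscle, with sums of 29170 to 30550 in liver and 22503 to 26272 in muscle over the list. Fibroblast and stellate cell genes were higher in muscle in 14 of 17, and in 7 of the 9 detected on all 6 arrays, beside 46.3% of all genes tested. Their sums were 24024 to 25608 in liver and 32862 to 34908 in muscle. Reln and Lrat, known from stellate cells, were among the 3 higher in liver (2.95 and 2.04). Of the 7 tendon genes with a probe, 0 were detected in liver and 3 in muscle, and of the 6 of nerve and Schwann cells, 1 and 3. Of the 5 bile duct genes with a probe, only Sox9 was tested, and it was higher in muscle (-1.74). Bile duct genes summed to 1584 to 1917 in liver and 3927 to 4620 in muscle. The T and B cell genes tested, Cd3g (0.59) and Ms4a1 (0.22), and Cela1 (2.41) of the pancreas list were higher in liver. The call of Ms4a1 was lost under 3 alternatives. Adipocyte genes summed to 11495 to 12817 in liver and 14035 to 17412 in muscle, against 191983 to 212718 in WAT. Of the 6 tested, 2 were higher in liver, Pck1 (3.01) among them, and 4 in muscle, beside 40.5% and 46.3% of all genes tested. Lep, among the 4, had 7.31, 7.32 and 7.55 in liver and 8.54, 8.03 and 8.16 in muscle. Plin1, Fabp4 and Retn were detected on 0 arrays of either tissue. Of the 2 red blood cell genes tested, Alas2 was higher in liver (2.31). Hba-a1, a haemoglobin of blood, was not called (0.07, adjusted p = 0.50), and was called higher in liver with arrays scaled to a common median. The part of these cells in the differences of other genes was not tested.

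WAT of the same diet was set beside both, with 3 pools. Of the 951 genes detected in liver and not in muscle, 338 (35.5%) were detected on no WAT array and 503 on all 3, and of the 1173 genes detected in muscle and not in liver, 284 (24.2%) were detected on no WAT array and 787 on all 3. Fga, Ahsg and Cps1 were detected on 0 of the WAT arrays, while Nr1h4 was on all 3, with a mean of 8.05. Myl2, Myl3, Ttn and Ckm were likewise not detected in WAT, but Acta1 averaged 12.05 ± 0.28 there and Myl1 13.37 ± 0.17 (SD, n = 3 pools). Cyp2e1 averaged 15.88 in liver, 8.66 in muscle and 15.87 in WAT, and Lpl averaged 11.38 in liver, 15.98 in muscle and 15.99 in WAT. The means of 15.87 to 15.99 lay near the top of the signal range. The highest signal of an ND array was 63376 to 69759 before log2 and normalization. Whether such signals were saturated was not tested, so like means there are not read as equal expression.

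The tissue difference was also taken on the HFD and with UR, each from its own 6 arrays and for the same genes and probes. At 2-fold, 1828 genes were higher in liver (18.3%) and 1928 in muscle (19.3%) on the HFD, and 1662 (16.6%) and 1809 (18.1%) with UR. Of the 3835 genes called at 2-fold on the ND, 3391 were called at 2-fold in the same direction on the HFD and 3062 with UR, which were 88.4% and 79.8% of the ND genes and 90.3% and 88.2% of the genes so called on the HFD and with UR, while 2 genes on the HFD and 0 with UR were called in the opposite direction. Medians of lists stayed close, with 7.09, 7.01 and 6.77 for plasma proteins and -6.08, -6.14 and -6.13 for the thick filament on the ND, on the HFD and with UR. Thin filament genes had -6.54, -5.51 and -5.76, and macrophage genes 1.56, 2.09 and 1.27. Among single genes, Idh2 differed by -5.31, -4.60 and -3.02, Pdk4 by -4.06, -5.85 and -6.79, Fgf21 by 4.53, 3.22 and 2.71, and Lpl by -4.59, -2.53 and -4.09. Whether the tissue difference itself differed between diets was not tested.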

How the data were processed

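RNA of liver, gastrocnemius muscle and WAT was hybridised to Illumina MouseWG-6 v2 BeadChips, 1 array per pool. The authors deposited a non-normalized table of signal intensity per probe, with a detection p-value for each probe and array, as exported from the scanner software. The sources used here do not say how the software treated the background. The deposited detection p-values served to filter probes and entered no test.

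The log2 signal intensities were quantile-normalized over all 27 arrays. A probe was kept if each of the 3 arrays of at least 1 tissue had a detection p under 0.05 (17801 of 45281), of which 2654 had no single gene symbol and were left out. Of 34903 annotated probes, 34885 had 1 symbol in the platform annotation and 18 had several, and 34807 matched the reference gene table. The probe with the highest mean signal stood for a gene. The 6 arrays were fitted with limma 3.58.1 (lmFit, and eBayes with an intensity trend), with Benjamini-Hochberg adjustment over all 9992 genes. The procedure was tested on simulated data first. Replicate numbers named samples and were not used as pairs. The p-values measure the spread between pools only, since each pool held RNA of several mice. The number of arrays limits the precision.

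The genes named were drawn from the 12 largest differences in each direction, the 8 largest in each direction among called genes detected on all 6 arrays, the called members of lists with the largest differences or going the other way, and all members of the isoform pairs, transcription factor, Hox and marker lists. For the 12 and the 8 largest, only called genes whose arrays did not overlap between the tissues were eligible. The members and lists were chosen with earlier results of these data known, and the families were added after the values had been seen. Alternatives were other normalizations (none, a common median, neqc with an offset of 16), other filters on detection, the mean over a gene's probes, all 27 arrays in 1 model, a replicate block, rank products with 100 permutations, which the methods name, a larger fold and leaving out each array. The labels' extraction protocol names adipose tissue and liver and leaves the muscle out.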

Additional observations from a re-analysis of the deposited data

Results flagged for a closer look

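A few genes differed between the tissues one way on the ND and the other way on another diet, with no overlap of the arrays in either. Fst, follistatin, which binds activins and myostatin, was higher in liver on the ND by 0.65, while its log2 difference was -0.24 on the HFD and -0.45 with UR. Atf5, a stress-responsive transcription factor of liver, was higher in liver on the ND by 0.70, and its difference was -0.33 with UR. Clock, a core gene of the circadian clock, was higher in liver on the ND by 0.18, and its difference was -0.71 with UR. They were picked because every liver array lay above every muscle array on the ND and below every muscle array on the other diet. That separation is thus a condition of the choice and not a result. The share of all genes with this pattern is not given here. Whether the tissue difference itself differed between the diets was not tested for these genes.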

How the results depend on the processing

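The counts of genes called kept within 1.5 times under most alternatives. Leaving out each array in turn gave 3951 to 4024 genes higher in liver and 4550 to 4597 higher in muscle, or 1782 to 1812 and 2020 to 2066 at 2-fold. At 2-fold, 1060 genes were higher in liver and 1227 in muscle among the 7130 genes left with probes detected on all 6 arrays, and 896 and 805 passed a log2 difference of 2. Rank products called 318 genes in each direction at a false discovery rate under 0.05, and the cause of the lower count was not tested. The background correction of neqc kept the calls close (4039 and 4616) and widened the differences, with 2517 and 2830 genes at 2-fold and a median size of 2.67 in place of 1.82 for the genes called at 2-fold, so the sizes depend on how the background was treated. Scaling to a common median and no normalization moved the median of all genes from -0.08 to 0.02 and 0.08, and the share of calls that were higher in liver from 46.6% to 51.5% and 54.1%.

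The samples were not paired by their numbers. Deviations from the group means correlated by 0.0765 to 0.0822 between liver and muscle arrays of the same number and by -0.0633 to -0.0170 between those of different numbers, and 6 of 6 arrays correlated best with their own number, a hint from the data and not from the design. With the replicate block, 4035 genes were higher in liver and 4622 in muscle. The call of Per3 was lost with the block.

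Some results turned direction, and where the alternative's construction does not show why, the cause was not tested. With only probes detected on all 6 arrays kept, another probe could stand for a gene. The median of excitation-contraction coupling was then 0.73, and Tpm3 was at 0.93. In the main fit, 2 of the 28 coupling genes tested were detected on all 6 arrays. The median of 0.73 therefore rests on few genes and does not describe the whole list. Asph, of the coupling list, was at -4.43 in the main fit and reversed under 5 alternatives, with 0.99 under neqc. Without the filter the median of adipocyte genes was 0.0058. Scaled to a common median, the medians were 0.071 for cytosolic ribosomal proteins and 0.089 for proteasome subunits, and Cebpb was at 0.34. Without normalization these were at 0.12, 0.14 and 0.39. With the mean over probes, Nfib was at 0.10. Of the other values of named genes under an alternative, Asph and Alas2 left out, 4155 stayed on their side of the threshold, 25 lost their call and 7 gained one. Detection is the limit of the lower values, since 951 genes had no detected signal in muscle and 1173 none in liver.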

Other observations

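Of 24 collagen genes tested, 6 were higher in liver and 18 in muscle (median -0.87), beside 40.5% and 46.3% of all genes tested. Of the 9 detected on all 6 arrays, 3 were higher in liver and 6 in muscle. Col18a1, whose C-terminal fragment is endostatin, went furthest towards liver, with 14.34, 14.32 and 14.35 in liver and 9.32, 9.28 and 9.26 in muscle. All 6 major urinary protein genes, each detected in liver only, were higher in liver (median 7.53), and their sequences are near-identical.

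Among clock genes, the pools numbered 2 stood high in both tissues for some genes. Per1 had 8.87, 9.71 and 8.65 in liver and 10.25, 10.74 and 9.90 in muscle. Per2 had 10.05, 10.60 and 10.01 in liver and 8.83, 9.87 and 9.27 in muscle. Usp2 had 8.86, 9.57 and 8.68 in liver and 12.21, 12.73 and 12.33 in muscle. Dbp, in contrast, had 12.01, 11.88 and 10.95 in liver and 11.14, 10.97 and 11.01 in muscle. These genes were singled out after their values had been seen.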
